A study of Mus musculus with 6 samples.

Results

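Translation efficiency (TE), the footprints a message carries relative to its RNA, was compared in mouse E14 stem cells between a knockdown of pyruvate kinase M (PKM), the enzyme of the last step of glycolysis, and a control siRNA. All 4 siRNA libraries among the 6 libraries of the study entered, and every one of the 6535 rows of the deposited table, 1 per transcript, was used. For each row, the log2 of siPKM footprints over siPKM RNA was taken relative to the log2 of siCtrl footprints over siCtrl RNA. Reads came from the coding sequence (CDS) without its first 15 and last 5 codons. Each library was scaled to its sum, and the ratios were centred on the median row. Below, this value is called the TE ratio, and rows at least 1.5-fold apart (log2 0.58) are called higher or lower in TE.

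E14 cells are a long-used mouse embryonic stem line, here of wild-type genotype and grown on gelatin in serum medium with LIF. The siCtrl cells received a pool of non-targeting siRNAs and the siPKM cells a pool against PKM1 and PKM2, each at 20 nM for 36 h. Both were passaged 16 h before harvest and given cycloheximide, which stalls elongating cytosolic ribosomes, at 100 µg/ml for 2 min. For each condition, total RNA without rRNA made up 1 library and ribosome-protected fragments (RPF), called footprints here, the other. Footprints were cut with RNase A and RNase T1 in place of RNase I, after nuclei had been spun out of the lysate, and were pelleted through a sucrose cushion. The labels do not say that nuclei were removed before RNA-seq. The other 2 libraries were crosslinking (FAST-iCLIP) replicates of FLAG-HA-tagged PKM2 in E14 cells with no siRNA listed, used below only as a property of the transcripts.

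A ribosome shields the stretch of message it sits on from nuclease, so sequencing the protected fragments counts ribosomes on each coding sequence. Dividing by the RNA reads of the same sequence gives the ribosomes carried per message. In mammalian cells this load is set mostly at initiation, where features of the 5' leader such as upstream reading frames and oligopyrimidine starts act, and footprints also accumulate where elongation is slow. A TE ratio can move because footprints differ, because RNA differs without a matching difference in footprints, or both. PKM2 is chiefly a cytosolic enzyme and has also been described as an RNA-binding and ribosome-associated protein.

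The 4 libraries held 10357272 to 15193841 CDS reads, with a median of 689 to 838 reads per row and no row under 151 in any library, so that genes below this level are not analysed here. Each condition had 1 library of each kind. There was no test between the conditions, no difference has a replicate check, and the 95% intervals cover counting error in the reads only. Of 12 embryonic stem cell markers 11 were in the table, and their summed RNA was 5173 in siCtrl and 5146 in siPKM, as CPM (reads scaled so that the CDS reads of each library sum to 1000000). Of markers of other lineages, the table held 3 of 8 for trophoblast, 1 of 6 for primitive endoderm, 0 of 4 for mesoderm, 3 of 5 for neural cells and 1 of 6 for fibroblasts. The neural markers summed to 177 CPM in siCtrl RNA and 125 in siPKM RNA, with a median TE ratio of -0.01. The fibroblast marker in the table, Vim, stood at 229 CPM in siCtrl RNA and 304 in siPKM RNA, and at 394 and 536 CPM in footprints. The stem cell markers had a median TE ratio of -0.13. The part of these markers in the results below was not tested. In such bulk samples fewer cells of a type and less RNA per cell cannot be told apart.

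The targeted gene was lower in RNA and in footprints alike. Pkm (row Pkm2, NM_011099) stood at 5020 CPM in siCtrl RNA and 1581 in siPKM RNA, and at 5304 CPM in siCtrl footprints and 1682 in siPKM footprints. Both siPKM libraries were far below their controls by nearly the same factor. The log2 ratio was -1.71 for RNA and -1.68 for footprints, and the TE ratio was 0.03 with an interval of -0.00 to 0.07. The remaining Pkm message thus carried as many footprints per RNA read as in the control, within the interval.

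Across the table TE differed little between the conditions. The TE ratio had an SD of 0.20, against 0.28 for the RNA ratio and 0.28 for the footprint ratio. Of the 6535 rows, 5876 (89.9%) lay within 1.25-fold, 12 (0.184%) were higher and 54 (0.826%) were lower by at least 1.5-fold, and 0 reached 2-fold. Reads alone gave a root mean square error of 0.12, equal to 36.6% of the variance of the TE ratio. In 1883 rows (28.8%) the counting interval left out 0, 917 of them higher and 966 lower. Footprints carried 49.1% of the variance of the TE ratio and RNA 50.9%, so that neither side dominated. Baseline efficiency, by comparison, spread over an SD of 0.82 in siCtrl and 0.81 in siPKM on the log2 scale.

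To separate the sides, the footprint share of a TE ratio was taken as the footprint ratio over the sum of the footprint ratio and the sign-reversed RNA ratio. A row was called footprint-led where this share was at least 66.7%, RNA-led where it was at most 33.3%, and both-led between. Of the 12 higher rows 4 were footprint-led, 4 RNA-led and 4 led by both. Of the 54 lower rows 15 were footprint-led, 26 RNA-led and 13 led by both. The RNA-led count was 13 with RNA counted over the whole transcript and 12 with at least 300 reads in each library. In the footprint-led lower rows the median footprint ratio was -0.67 beside an RNA ratio of -0.06. In the RNA-led lower rows it was the reverse, with a median RNA ratio of 0.53 and a footprint ratio of -0.12: the message was more abundant in siPKM and its footprints were not. At the fold limit, the last rows inside were 4921524J17Rik (0.59) and Abt1 (0.60) on the higher side and Git1 (-0.59) and Nktr (-0.59) on the lower. The first outside were 3110002H16Rik (0.58), Dtwd1 (0.58), Shroom3 (-0.58) and Pogz (-0.58).

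**Figure D1:**
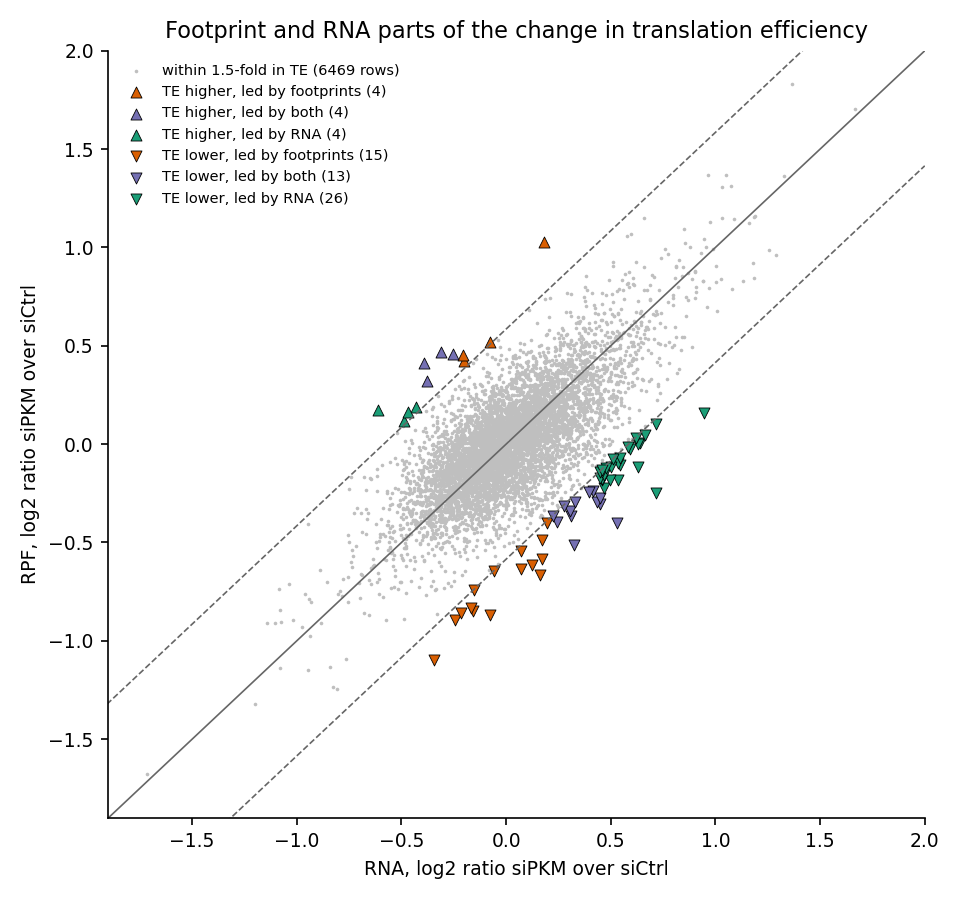
Log2 ratio of siPKM over siCtrl for RNA (x axis) and ribosome-protected fragments (y axis) in 6535 rows, with triangles for the 12 rows higher and the 54 rows lower in TE and colours for the leading side. The solid line marks equal ratios and the dashed lines 1.5-fold; most rows lie along the diagonal, and the RNA-led lower rows sit to the right of it near a footprint ratio of 0.

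The 12 rows higher in TE came from different pathways. Among the footprint-led ones Os9, a lectin that delivers misfolded glycoproteins to ER-associated degradation, had the highest TE ratio of the table. Os9 RNA was 22.3 CPM in siCtrl and 26.1 in siPKM, and its footprints were 12.4 and 25.6 CPM. Its RNA was thus similar in both conditions and its footprints were much higher in siPKM, with a TE ratio of 0.84 (interval 0.49 to 1.20). Hscb, a co-chaperone that hands over iron-sulfur clusters, had RNA of 27.5 and 24.7 CPM and footprints of 12.90 and 17.52 CPM in siCtrl and siPKM. Here the footprints were the larger part of the difference, with a share of 0.68 just past the limit, beside an RNA ratio of -0.20. The TE ratio was 0.62 (0.25 to 0.98). Ssna1, a microtubule-associated protein of centrosomes, was at 0.66, and the uncharacterised 4921524J17Rik was at 0.59.

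Both-led rows had fewer CDS reads of RNA and more footprints in siPKM. Psmc3ip encodes a partner of the meiotic recombinases. Its RNA stood at 32.5 CPM in siCtrl and 25.6 in siPKM and its footprints at 17.1 and 23.1 CPM, which gave a TE ratio of 0.80 (0.47 to 1.13). Ubl4 (now Ubl4a) acts in the delivery of tail-anchored proteins to the ER membrane. Its RNA was 24.01 and 19.99 CPM and its footprints 22.8 and 31.9 CPM, a TE ratio of 0.77 (0.44 to 1.10). Both genes showed the same crossing of RNA downward and footprints upward in CDS reads. In reads of the 3' untranslated region (3' UTR), the RNA ratio of Psmc3ip was 0.27 against -0.39 from the CDS. Its TE ratio was then 0.14. Ubl4 had only 30 and 27 such reads in siCtrl and siPKM, too few for this measure. Pitpnc1, a phosphatidylinositol transfer protein, was at 0.71 and the kinase Sgk3 at 0.70.

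In the RNA-led higher rows, CDS reads of RNA were lower in siPKM and footprints stayed near their control level. Eif1a, which encodes an initiation factor used in scanning and start-codon choice, had 28.9 CPM of RNA in siCtrl and 19.5 in siPKM, beside 28.4 and 32.5 CPM of footprints. Its TE ratio was 0.78 (0.46 to 1.10). Vars2, the mitochondrial valyl-tRNA synthetase, had 43.3 and 33.2 CPM of RNA and 17.0 and 19.7 CPM of footprints, a TE ratio of 0.62 (0.30 to 0.94). Abt1, a nucleolar protein, was at 0.60. Reads of the 3' UTR gave an RNA ratio of -0.07 for Eif1a and -0.005 for Abt1, so this RNA was level. The TE ratios were then 0.25 and 0.12.

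Depth behind these 12 was shallow: 10 of them had under 300 reads in at least 1 library, and with 300 reads required in each library 2 rows were higher in place of 12. With RNA counted over the whole transcript, Eif1a was at 0.26, Pitpnc1 at 0.32, Abt1 at 0.33, Sgk3 at 0.50, Ssna1 at 0.52 and 4921524J17Rik at 0.52, all inside 1.5-fold, and Hscb was at 0.48 once the reads at the coding ends were added. Of the 12, 5 were past the fold under every other scaling, read region and depth tried that held the row, apart from those of 3' UTR reads, among them Os9, Psmc3ip, Ubl4 and Vars2. None of these named rows had 300 reads in each library, so the depth setting did not hold them. Other scalings shifted all rows together and by little, with a median TE ratio of -0.02 without centring. For these rows only the changes of read region were a real check.

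The 15 footprint-led lower rows had functions of many kinds. Clk1, a kinase that phosphorylates SR splicing proteins, had RNA of 134.9 CPM in siCtrl and 109.6 in siPKM, and footprints of 80.6 and 38.2 CPM. Footprints in siPKM were under the control by a wider margin than RNA, and the TE ratio was -0.76 (-0.94 to -0.57). Bdp1, a subunit of the RNA polymerase III initiation factor TFIIIB, had 114.3 and 112.0 CPM of RNA and 56.7 and 31.5 CPM of footprints. Its RNA was level and its footprints were lower, with a TE ratio of -0.79 (-1.0 to -0.59). Rnf10, a ubiquitin ligase known to modify small-subunit ribosomal proteins, had 178.5 and 206.1 CPM of RNA but 78.0 and 49.8 CPM of footprints. Its TE ratio was -0.83 (-1.0 to -0.67).

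Iqgap1, a large scaffold of the actin cytoskeleton, was already poorly loaded in siCtrl. It had 244.3 CPM of RNA in siCtrl and 284.5 in siPKM, beside 22.3 and 15.1 CPM of footprints, and a TE ratio of -0.76 (-1.02 to -0.49). Its log2 control TE was -3.28 relative to the median row. D4Wsu53e (now Rsrp1) was at -0.74, the bZIP protein Crebzf at -0.69, the adhesion receptor Lphn1 (now Adgrl1) at -0.67, the sarcomere protein Ttn at -0.66, the readthrough transcript Iqcj-schip1 at -0.65 and the endosomal sorting protein Stam at -0.64. The Ttn row had 0.00% of its coding RNA reads in the first 15 and last 5 codons. The row Pol, a LINE-1 polyprotein present in many genomic copies, was at -0.71 and has no single gene behind it.

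Rows led by both had more RNA and fewer footprints in siPKM. Ucp2, a carrier of the inner mitochondrial membrane whose leader holds an inhibitory upstream reading frame, had 13.4 and 17.3 CPM of RNA and 40.9 and 29.1 CPM of footprints. Its TE ratio was -0.84 (-1.20 to -0.48). Macf1, a giant linker of actin and microtubules, had 799.8 and 1126 CPM of RNA and 108.2 and 90.8 CPM of footprints. RNA was higher and footprints were lower, and the TE ratio was -0.72 (-0.84 to -0.61). The row mt-Nd4 stood at 128.7 and 192.0 CPM of RNA and 148.4 and 114.3 CPM of footprints, a TE ratio of -0.93 (-1.07 to -0.80). It is the only row with a mitochondrial (mt-) symbol. Its description names chain 4L of the NADH dehydrogenase, which shares a message with chain 4, and mitochondrial ribosomes are not stalled by cycloheximide. Also led by both were Ankrd52, a phosphatase 6 subunit, at -0.75, the aminopeptidase Xpnpep3 at -0.73, the nuclear receptor Nr4a1 at -0.68, the replication fork protein Bod1l at -0.65, cyclin I (Ccni) at -0.65, the ataxin-2 relative Atxn2l at -0.64 and the coactivator Ncoa1 at -0.64.

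The RNA-led lower rows held the lowest TE ratio of the table. Zfp932, a zinc finger protein, had 22.4 CPM of RNA in siCtrl and 37.9 in siPKM, and 14.1 and 12.02 CPM of footprints. Its TE ratio was -0.97 (-1.34 to -0.59). Dlgap3, a scaffold protein known from synapses, had 15.6 and 31.0 CPM of RNA and 23.9 and 27.1 CPM of footprints. Its RNA was far higher in siPKM while its footprints were only slightly higher, and the TE ratio was -0.79 (-1.12 to -0.45). Apc, the scaffold of the beta-catenin destruction complex, had 74.4 and 112.0 CPM of RNA and 76.5 and 72.1 CPM of footprints, a TE ratio of -0.65 (-0.83 to -0.48). In all 3 the RNA was higher in siPKM, and the footprints lay within 1.25-fold of control. Ank2 was at -0.75, Cux1 (described as its CASP isoform) at -0.72, the TFIID subunit Taf3 at -0.69, Tprn at -0.68 and Pddc1 (now Gatd1) at -0.64.

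**Figure D2:**
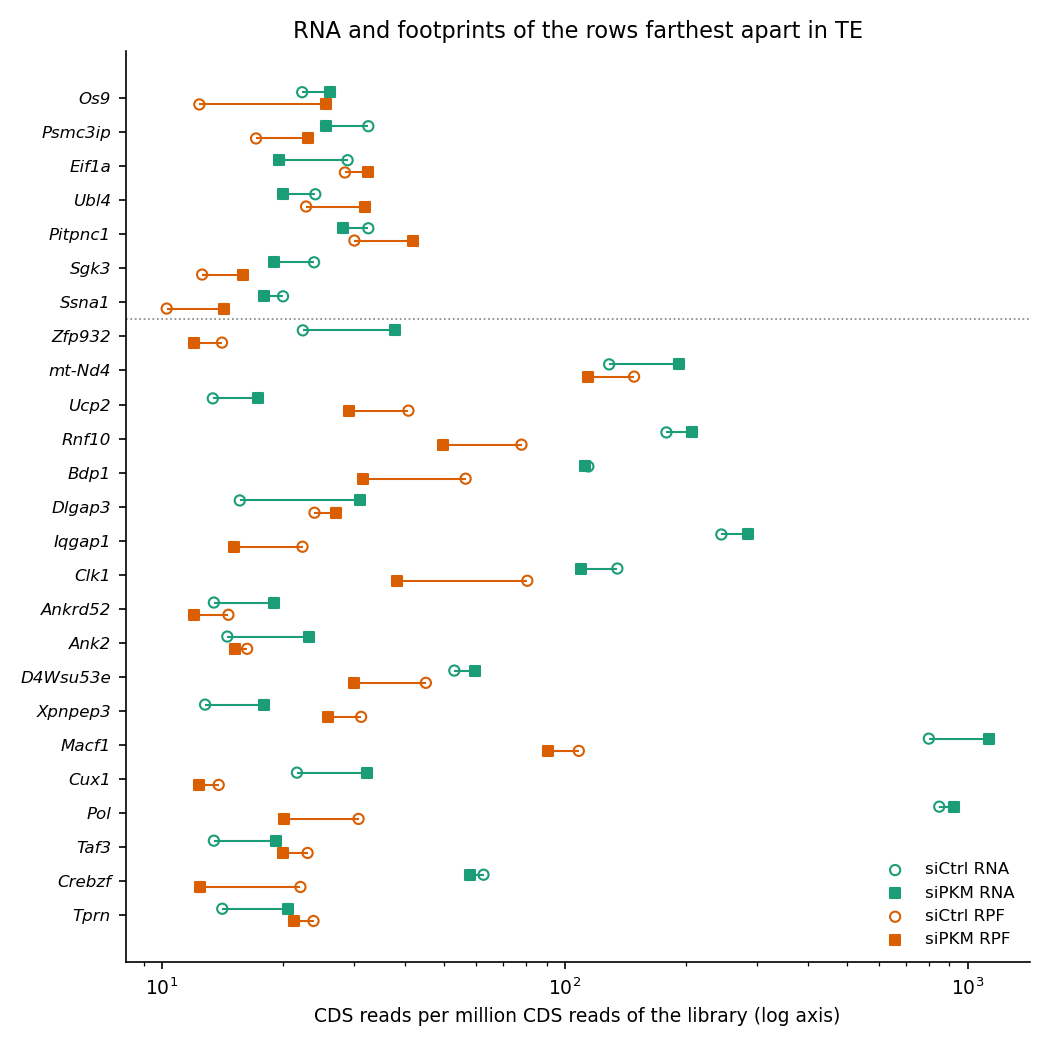
CPM of CDS reads on a log axis in each of the 4 libraries, RNA in green and footprints in orange, open for siCtrl and filled for siPKM, for the 7 rows with the highest TE ratios (above the dotted line) and the 18 rows with the lowest TE ratios. Os9 shows the longest footprint line of the upper rows, Dlgap3 and Zfp932 long RNA lines, and Clk1 and Bdp1 long footprint lines; each symbol is 1 library.

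Of the 54 lower rows, 30 had under 300 reads in at least 1 library. With 300 required in each, 26 rows were lower, of which 24 were among the 54. With RNA counted over the whole transcript 36 rows were lower, of which 30 were among the 54, and 24 of the 54 fell inside the fold. Among these, Xpnpep3 was at -0.20, Pddc1 at -0.26, Nr4a1 at -0.44 and Stam at -0.46. Pol was at -0.46, Ccni at -0.53, Iqcj-schip1 at -0.53 and Lphn1 at -0.55. Of the 54, 29 were past the fold under every other scaling, read region and depth tried that held the row, apart from those of 3' UTR reads, among them Clk1, Bdp1, Rnf10, Iqgap1, Ucp2, Macf1, mt-Nd4, Zfp932, Dlgap3 and Apc. Iqgap1, Ucp2, Zfp932 and Dlgap3 had under 300 reads in a library, so the depth setting did not hold them.

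Rows with at least 1000 reads in each library gave the most precise values. There were 1943 of them, with a counting error of 0.06 (root mean square) and an SD of the TE ratio of 0.15. None was higher and 5 were lower: mt-Nd4, Macf1 and Ttn, given above, and Flna (-0.63, interval -0.73 to -0.53) and Spen (-0.59, -0.75 to -0.44), both named after their values were seen. Flna, the actin crosslinker filamin A, had 1496 and 2108 CPM of RNA and 132.0 and 118.6 CPM of footprints. Its RNA was higher by a log2 ratio of 0.45 with footprints at -0.17. Among the highest of these deep rows, also named after their values were seen, were Rpl32 at 0.57, 2900010J23Rik (now Swi5) at 0.43, Calm2 at 0.41 and Rpl39 at 0.41. Calm2 encodes the calcium sensor calmodulin, and its RNA was 249.0 CPM in siCtrl and 228.4 in siPKM while its footprints were 241.2 and 290.0 CPM. These encode short proteins, and the 2 ribosomal ones have near-identical copies, which makes their values uncertain.

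The RNA side was then read from other sequence of the same messages. Reads in the 3' UTR come from the same RNA libraries but from bases that carry few ribosomes, and 5703 rows had at least 50 of them in both RNA libraries. For the 41 lower rows among these, the median RNA ratio was 0.40 from the CDS and 0.06 from the 3' UTR. With the 3' UTR as the RNA level their median TE ratio was -0.45 in place of -0.64, 38 of 41 stayed below 0 and 17 were past the fold. The 14 footprint-led rows stood at -0.55 by this measure, all 14 below 0, and the 16 RNA-led rows at -0.38. For the 8 higher rows the RNA ratio was -0.32 from the CDS and 0.04 from the 3' UTR, and the TE ratio 0.31. The members had been chosen by their CDS reads, and the 3' UTR RNA ratio was wider over all rows, with an SD of 0.31 against 0.27 for the CDS in these rows.

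Single genes differed in this respect. The RNA ratio of Apc was 0.54 from the CDS and 0.66 from the 3' UTR, and that of Zfp932 was 0.72 and 0.66. Macf1 was at 0.45 and 0.51, and for these 3 the RNA ratio was similar in coding and untranslated sequence. The row mt-Nd4 was at 0.53 and 0.54, but what the table counts as its 3' UTR may hold coding sequence of the shared message. Git1, which encodes a GTPase-activating protein, had 0.62 from the CDS and 0.04 from the 3' UTR. Spen, a transcriptional repressor that binds RNA, had 0.45 and 0.01. In these last genes the coding reads were higher in siPKM and the 3' UTR ratio was near 0. That ratio rests on 111 and 101 reads in siCtrl and siPKM for Git1, and on 65 and 58 for Spen. With so few reads it is uncertain, most of all for Spen, and the cause was not tested.

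Footprints in the 5' UTR gave a second view of loading. At least 30 of them in each RPF library were present in 3325 rows, among them 26 of the lower rows. Their median 5' UTR footprint ratio was -0.16 beside -0.32 in the CDS, and 19 of the 26 had a higher ratio in the 5' UTR than in the CDS, against 51.8% of all 3325 rows. For the 4 higher rows it was 0.28 beside 0.46, with 2 of the 4 higher in the 5' UTR. Both sets were chosen by the same CDS footprints, so a 5' UTR ratio nearer 0 follows in part from the choice and nothing is read from these counts. In Ucp2 the leader held 507 footprints in siCtrl and 514 in siPKM, a ratio of 0.34 after scaling, while its CDS ratio was -0.51. Dlgap3 had 72 and 115 leader footprints, a ratio of 0.99 beside 0.16 in the CDS. The leader ratio was above the CDS ratio in both genes. They too had been chosen by low TE ratios, which the CDS footprints enter, so nothing is read from this gap. The RNA ratio of Ucp2 was 0.32, close to that of its leader, and Dlgap3 RNA was far higher in siPKM as well. Whether the leader footprints followed the RNA was not tested. In Clk1 the leader went with the CDS, with 130 and 63 footprints and a ratio of -0.73 beside -1.10, and in Rnf10 it did so in part, with 1072 and 666 footprints and -0.37 beside -0.67. In the first 15 codons, 5 of the lower rows and 3 of the higher rows had at least 20 reads in each library, and the TE ratio there had a median of 0.40 and 0.24. With so few rows these values are given without a comparison.

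Rows with the highest baseline efficiency had a median TE ratio below 0. In the decile of rows with the highest control TE the median TE ratio was -0.11, with RNA at 0.10 and footprints at -0.03, and 73.9% of these rows were below 0. In the lowest decile it was -0.00, deciles 2 to 7 lay between 0.01 and 0.05, and deciles 8 and 9 at -0.02 and -0.03. Control TE and TE ratio share both siCtrl libraries, so the bins were also made by siPKM TE and by the mean of both. By siPKM TE the highest decile was at -0.04 and the lowest at -0.08, and by the mean they were at -0.08 and -0.05. The highest decile was below 0 in all 3 binnings, and there the RNA ratio was above 0 each time (0.10, 0.07 and 0.09). RNA was above 0 in the lowest decile too (0.03, 0.04 and 0.04), so these traits were not particular to the highest decile. The lowest decile moved with the binning, and with whole-transcript RNA its sign reversed to 0.01.

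Rows past the fold came from the whole range of baseline efficiency. Of the 54 lower rows 24 were below the median control TE and 30 above, from -4.61 (Pol) to 3.43 (Atxn2l). By mean TE, 15 of them were in the lowest decile and 10 in the highest, while no decile between held more than 6. Iqgap1 (log2 control TE -3.28) lay at the poorly loaded end, and Ucp2 (1.79) and Nr4a1 (1.76) at the well loaded end. Of the 12 higher rows 9 were below the median, from -1.17 (Vars2) to 0.15 (Eif1a). Each called row used the siCtrl libraries in its TE ratio too, so these positions are a description.

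**Figure D3:**
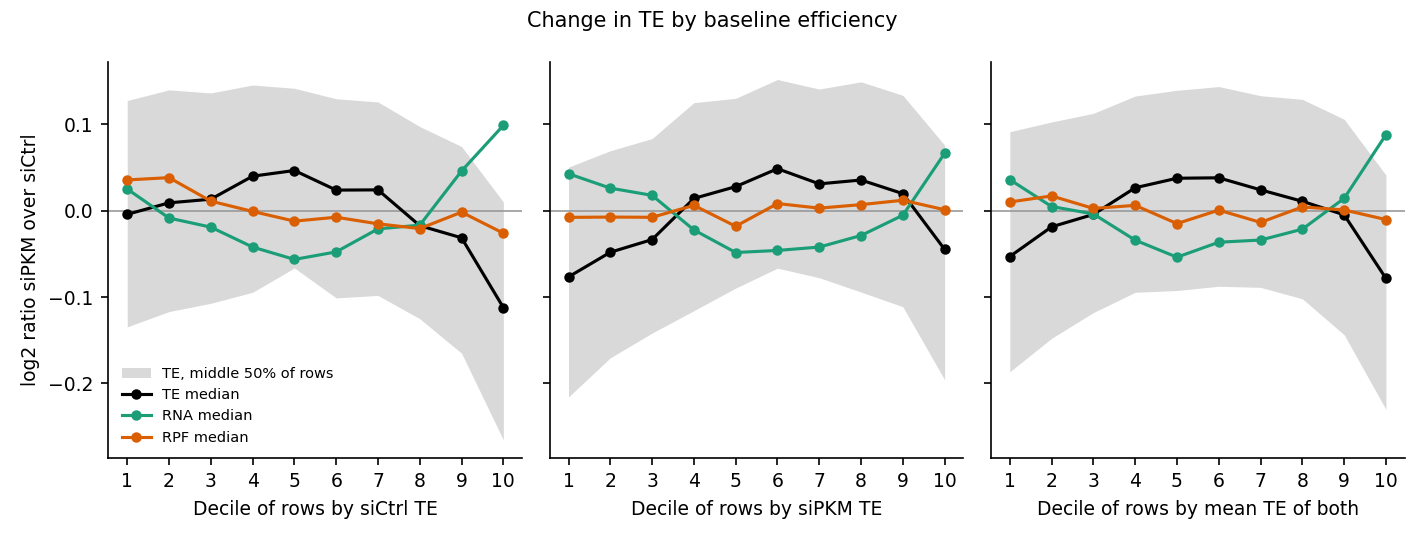
Median log2 ratio of siPKM over siCtrl for TE (black), RNA (green) and RPF (orange) in deciles of the 6535 rows ordered by siCtrl TE, by siPKM TE and by the mean of both, with grey for the middle 50% of TE ratios. The highest decile is below 0 in each panel (-0.11, -0.04 and -0.08), and the lowest decile is at -0.00, -0.08 and -0.05.

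A gradient ran with a stand-in for coding length. No table of coding lengths was used here, and the share of coding RNA reads in the first 15 and last 5 codons was used in its place, since a long coding sequence has a small share of its reads at its ends. In the decile with the smallest share (median 0.784%) the TE ratio had a median of -0.10, with RNA at 0.14 and footprints at 0.02. In the decile with the largest share (13.8%) it was 0.09, with RNA at -0.12 and footprints at -0.01. The deciles between went from -0.05 to 0.05 with 1 small step back, and the RNA medians ran the other way over a wider span, with footprint medians close to 0. Of the 54 lower rows 19 lay in the decile with the smallest share. The median share was 1.77% for the lower rows, 5.41% for the higher rows and 3.56% for all.

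Crosslinking to PKM2, a readout from other cultures, ran with the TE ratio in the same manner. Stops of reverse transcription, 677701 and 670725 in the 2 CLIP replicates with background included, were divided by RNA reads of the whole transcript. In the decile with the least CLIP over control RNA the median TE ratio was 0.08, with RNA at -0.14 and footprints at -0.05. In the decile with the most it was -0.15, with RNA at 0.25 and footprints at 0.06, and 25 of the 54 lower rows lay there. With siPKM RNA as the denominator the top decile stood at -0.14 and held 23 of the lower rows. The RNA library used as denominator is also part of the TE ratio, and dividing by either gave the same direction. RNA abundance enters this denominator as well. In the decile with the fewest CDS reads of RNA the median TE ratio was -0.03, with RNA at 0.11. In the decile with the most it was 0.04, with RNA at -0.09. The part of abundance in the CLIP gradient was not tested.

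Coding-end share and crosslinking overlapped. In the 1003 rows of the tertile with the smallest end share and the tertile with the most CLIP over control RNA, the median TE ratio was -0.14 and 25 rows were lower. In the 1030 rows at the opposite corner it was 0.09. Within the tertile of smallest end share it went from 0.02 at low to -0.14 at high CLIP, and within the tertile of largest end share from 0.09 to -0.02. Both gradients were thus present inside the tertiles of the other measure. The median log2 CLIP over control RNA was 1.69 for the lower rows, -0.45 for the higher rows and 0.08 for all. It was 2.47 in Macf1, 4.15 in Mki67 and 3.31 in Apc, but -0.06 in Zfp932, -0.31 in Clk1 and -0.46 in Iqcj-schip1. Mki67, the proliferation antigen Ki-67, was named after its values were seen, and its TE ratio was -0.60. Its RNA ratio was 0.58 from the CDS but 0.09 from the 3' UTR, which gave a TE ratio of -0.11.

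**Figure D4:**
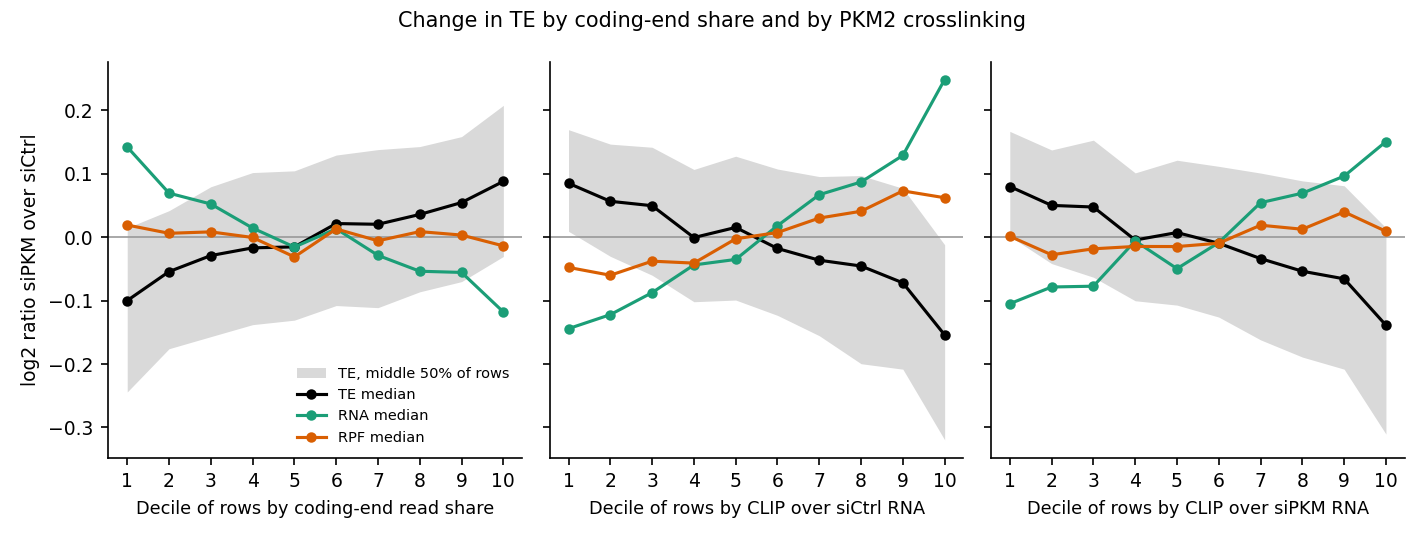
Median log2 ratio of siPKM over siCtrl for TE (black), RNA (green) and RPF (orange) in deciles of rows by coding-end read share and by CLIP stops over siCtrl RNA or siPKM RNA, with grey for the middle 50% of TE ratios. TE runs from -0.10 to 0.09 with rising end share and from 0.08 to -0.15 with rising CLIP over siCtrl RNA, and the RNA line mirrors it while the RPF line stays flatter.

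Among 38 gene lists of pathways and families, which cover 1182 rows, list medians of the TE ratio stayed between -0.16 and 0.14 apart from the single mitochondrially encoded row. The 78 rows of cytosolic ribosomal proteins had a median of 0.13, with 68 above 0, and Rplp1 the lowest at -0.16. Their RNA was at -0.08 and their footprints at 0.06, so both sides contributed. Of these rows 1 was higher by 1.5-fold, against 0.184% of all rows, too few to read. Many ribosomal protein genes have near-identical copies, and the median is uncertain to that extent. The 18 other messages known to start with an oligopyrimidine tract, which share Eef1a1 and other factors with the lists below, had a median of 0.10, with 17 above 0. Eef1a1, which brings aminoacyl-tRNA to the ribosome, had 2395 and 2307 CPM of RNA and 3536 and 4284 CPM of footprints, a TE ratio of 0.35 (0.32 to 0.38). Pabpc1, the cytoplasmic poly(A)-binding protein, was the lowest of them at -0.19, with RNA of 649.0 and 824.0 CPM.

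An oligopyrimidine start was also looked up directly. The motif, a C followed by at least 4 pyrimidines at the annotated start on the gene's strand, was searched in RefSeq promoters of assembly GRCm38.p6, where 3.01% of 27025 genes hold it at that position. RefSeq starts are approximate, so a missing match says little. Of 5286 rows with a promoter 160 matched, with a median TE ratio of 0.01 against 0.00 for the other 5126. Among ribosomal proteins the 12 with a match stood at 0.04, 10 above 0, and the 46 without at 0.13, 41 above 0. Matched and unmatched ribosomal proteins thus lay on the same side. The start windows of matched genes along the range, and of the matched rows lower in TE, are shown with 5 bases before the start and 20 from it, tract in capitals, each on its own strand.
Rps18 (chr17:33955646-33955670, minus strand): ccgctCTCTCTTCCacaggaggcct
Rpl38 (chr11:114668575-114668599, plus strand): tcgttCTTTCCCCgttctcttcggt
Rps6 (chr4:86857348-86857372, minus strand): cgggcCTCTTTTTCgtgacgcctcc
Rpl35a (chr16:33056477-33056501, plus strand): ccttcCTCTTTCCgccatcttggcg
Tnk2 (chr16:32673149-32673173, plus strand): ttgccCTTCCgccccaggctcctgc
Zfp932 (chr5:109996522-109996546, plus strand): ggtttCCCTTagtagctgagcaggc
The TE ratio was 0.26 for Rps18, 0.25 for Rpl38, 0.12 for Rps6 and -0.08 for Rpl35a, whose tracts have 9, 8, 9 and 8 bases. It was -0.59 for Tnk2 and -0.97 for Zfp932, each with a tract of 5 bases. Tracts of 8 bases thus stood beside both a higher and a lower value.

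The other parts of the translation machinery lay slightly above 0. Initiation factors (38 rows) had a median of 0.07, with 25 above 0, from Eif1a to Eif4g3 (-0.36). Their RNA was at -0.14 and their footprints at -0.08, so the list was lower on both sides and less so in footprints. Elongation and release factors (14) stood at 0.08, with the release factor Gspt2 at -0.54. Cytosolic aminoacyl-tRNA synthetases (20) were at 0.04, from Dars (0.25) to Vars (-0.19), and mitochondrial ribosomal proteins (71) at 0.07, from Mrps23 (0.49) to Mrpl10 (-0.52). Ribosome assembly factors (53) had an RNA median of -0.19 and a footprint median of -0.14, which left a TE ratio of 0.05. Mitochondrial aminoacyl-tRNA synthetases were at 0.00, a sign that turned to -0.02 without centring. RNA polymerase III with its factors (18) was at 0.02, with Bdp1 far below the rest. With 3' UTR RNA as the RNA level, cytosolic aminoacyl-tRNA synthetases stood at -0.02 (19 rows) and RNA polymerase III at -0.01 (15 rows). By this measure Mrps23 was at -0.16 and Mrpl10 at -0.32, so the high value of Mrps23 was not kept. Its RNA ratio was -0.62 from the CDS and 0.03 from the 3' UTR.

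Metabolic and folding machines were on the same side. Nuclear-encoded respiratory chain subunits (76 rows) were at 0.08 with 57 above 0, from Uqcr10 (0.52) to Ndufa3 (-0.32). Proteasome subunits (36) were at 0.10 with 27 above 0, and their RNA was at -0.17 with footprints at -0.07. Citric acid cycle enzymes (18) were at 0.11, from Dld (0.23) to Ogdh (-0.11). With 3' UTR RNA as the RNA level Dld was at 0.11 and Ogdh at 0.51, so their order reversed. Glycolytic enzymes (14, with the targeted gene among them) were at 0.12 with 12 above 0, from Hk1 (0.36) to Pgam1 (-0.12). Hk1, the hexokinase of the first glycolytic step, had 35.2 and 38.8 CPM of RNA and 60.9 and 85.0 CPM of footprints. Iron-sulfur cluster assembly (17) was at 0.06, with Hscb at the top and Mms19 (-0.21) at the bottom, and the 6 selenoproteins at 0.14.

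Of the secretory pathway, ER chaperones and folding enzymes (30 rows) were at 0.11 with 24 above 0. Their RNA ratio was 0.14 and their footprint ratio 0.24, so messages were more abundant in siPKM and more footprints came with them. Erp44, a thiol-dependent retention factor, was the highest at 0.32, with RNA of 40.8 and 50.8 CPM and footprints of 47.2 and 72.1 CPM. ER translocation and N-glycosylation (32) were at 0.08, from Srp9 (0.44) to Srprb (-0.32). With 3' UTR RNA as the RNA level Srp9 was at 0.18 and Srprb at 0.02. Secreted and matrix proteins (32) had 0.31 in RNA and 0.44 in footprints, yet their median TE ratio was -0.00 and turned to 0.02 with whole-transcript RNA. Fbn1, the microfibril protein fibrillin-1, was the highest of them at 0.57, with footprints of 10.1 and 16.5 CPM. Plasma membrane receptors and adhesion proteins (65) were at -0.06, with RNA at 0.22 and footprints at 0.14, from Tgfbr1 (0.40) to Celsr1 (-0.62). ER-associated degradation (17) was at 0.07, with Os9 at the top and Ube2j1 (-0.50) at the bottom. This sign turned to -0.02 with whole-transcript RNA and to -0.06 with 3' UTR RNA (16 rows).

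The lists below 0 held large structural and chromatin proteins. Giant cytoskeletal linkers and motors (37 rows) had the lowest median of the lists with more than 1 row, -0.16, with 28 below 0 and 6 lower by 1.5-fold, against 0.826% of all rows. Their RNA ratio was 0.28 and their footprint ratio 0.05, so RNA was higher without a matching rise of footprints. Iqgap1 was the lowest, and its relative Iqgap2 the highest at 0.25 (-0.02 to 0.53), with RNA of 33.7 and 41.0 CPM and footprints of 25.3 and 36.1 CPM. Their median end share was 0.640%. Ankyrin repeat proteins (16, sharing Ank2 with the giant linkers) were at -0.15 with 13 below 0, from Ankrd26 (0.20) to Ankrd52. With 3' UTR RNA as the RNA level this list stood at -0.05 over 10 rows. Its RNA median was 0.11 from the CDS and -0.05 from the 3' UTR. Kinesins (24) were at -0.04, from Kif16b (0.42) to Kif18b (-0.35).

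Histone modifiers and chromatin remodelers (88 rows) were at -0.12, with 69 below 0. None was past the fold, from which nothing can be read at a share of 0.826% lower over all rows. Their RNA was at 0.04 and their footprints at -0.07, and Arid3b was the lowest at -0.57, with RNA of 18.8 and 30.3 CPM and footprints of 46.9 and 50.0 CPM. Smarca5, an ATPase of chromatin remodelling, was the highest at 0.30. Pluripotency genes (32) were at -0.12 with 24 below 0, RNA at 0.10 and footprints at -0.03. With 3' UTR RNA as the RNA level this list stood at -0.06 over 30 rows, with RNA at -0.00. Tet1, which oxidises methylcytosine, was the lowest at -0.47 (-0.57 to -0.37), with RNA of 180.3 and 261.5 CPM and footprints of 343.0 and 354.3 CPM. As in the RNA-led rows, its RNA was higher in siPKM and its footprints were level. Gdf3, a growth factor of stem cells, was the highest at 0.19. Zfp zinc finger proteins (102) were at -0.04.

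Stress response messages with known upstream reading frames and their regulators (11 rows) were at -0.16 with 8 below 0, from Eif2ak2 (0.21) to Ucp2. Replication-dependent histones (16) were far lower in RNA (-0.46) and in footprints (-0.44) with a TE ratio of 0.02, which was at -0.00 without centring. Their messages have near-identical copies. In RNA-processing lists the median was close to 0 and its sign depended on the setting. SR proteins and their kinases were at -0.02 (0.02 with the coding ends added). Heterogeneous nuclear ribonucleoproteins were at 0.01 (-0.01 without centring) and helicases at 0.01 (-0.01 without centring). Silencing factors were at -0.02 (0.01 with the coding ends added), but at -0.37 over 9 rows with 3' UTR RNA as the RNA level. Their RNA median was 0.15 from the CDS and 0.39 from the 3' UTR. The same held for vesicle coats at 0.01 (-0.01 without centring) and Rnf ring finger proteins at 0.03 (-0.02 with whole-transcript RNA). Nuclear pore proteins (28) were at -0.01, with Pom121 at -0.54, and Tet and Dnmt enzymes (7) at -0.02. Tail-anchored protein insertion (7) was at -0.05, with Ubl4 at the top and Bat3 (-0.38) at the bottom. With 3' UTR RNA, nuclear pore proteins stood at 0.02 (26 rows) and tail-anchored protein insertion at 0.05 (5 rows).

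**Figure D5:**
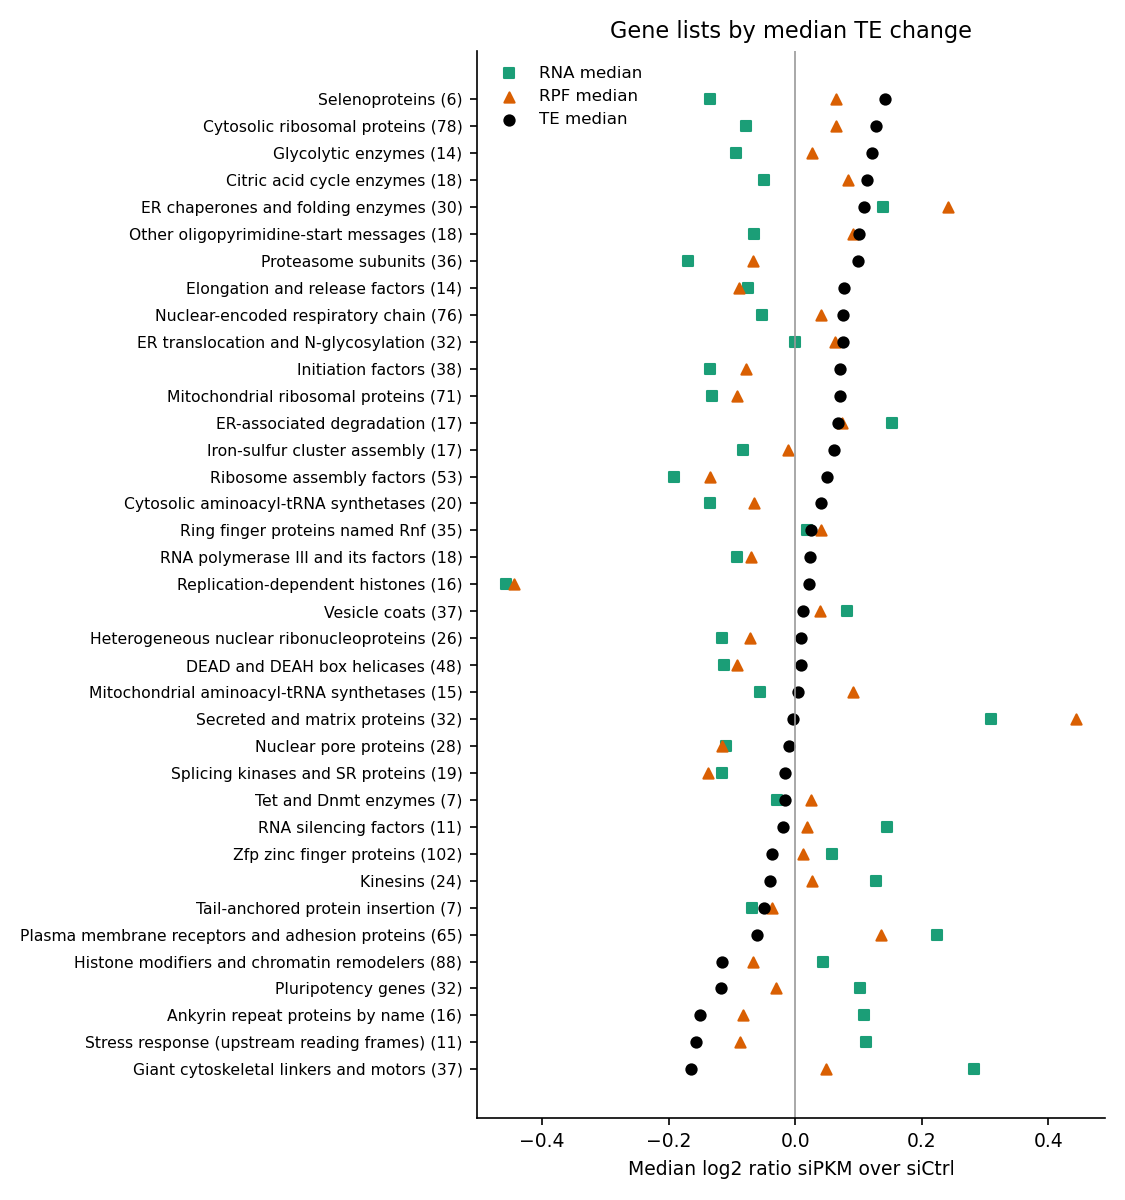
Median log2 ratio of siPKM over siCtrl for TE (black), RNA (green) and RPF (orange) in the gene lists with at least 6 rows, ordered by TE, with the number of rows in brackets. TE medians run from -0.16 for giant cytoskeletal linkers to 0.14 for selenoproteins, while RNA medians run from -0.46 for histones to 0.31 for secreted and matrix proteins; points carry no error because each condition had 1 library.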

How the data were processed

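Counts of reads per transcript region, deposited by the authors in 1 table, were used raw, per the file headers. The authors' deposited log2 translation efficiency served as an alternative only, and gave 10 rows higher and 64 lower. The submitters' processing notes name cutadapt, Bowtie2 and mm9. Tool versions, the counting tool, strand and the handling of multiply matching reads are not given in the sources used here. Values of near-identical copies and overlapping antisense genes are therefore uncertain. Ratios were computed with numpy 2.4.6 and pandas 2.3.3 under Python 3.11.15, with no pseudocount, and were tested on simulated data. Intervals are 95% from Poisson errors of the 4 counts. TMM factors came from edgeR 4.0.16 (R 4.3.3). CLIP over RNA had 0.5 CPM added to the stops. With 1 library per group, called means past the fold. RefSeq identifiers matched 6471 rows, of which 640 had another current symbol; the table has 6532 symbols, as 3 have more than 1 row. RefSeq start windows are of GRCm38.p6, not of mm9.

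Members and lists were chosen with earlier results of these data known. The naming rule took, apart from rows not reported here, all rows higher in TE, the 30 lowest, the extremes of each list, the 5 rows nearest the fold on each side and the targeted gene. Lists overlap, and list medians are descriptions. Reads were amplified by PCR and are no independent molecules, and a difference shared by all rows cannot be seen after centring.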

Additional observations from a re-analysis of the deposited data

How the results depend on the processing

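The counts of 12 higher and 54 lower rows fell to 2 and 26 with at least 300 reads in each library. The following settings were added after seeing the data. With at least 1000 reads in each library the counts were 0 and 5, and with 3' UTR RNA as the RNA level, over fewer rows, 69 and 100. Footprint-led higher rows numbered 0 with 300 reads and 2 with limits of 3/4 and 1/4. RNA-led lower rows numbered 13 with whole-transcript RNA and 12 with 300 reads, against 26. RNA-led higher rows numbered 2 without centring, with deposited library totals, with the deposited log2 TE, with 300 reads and with limits of 3/4 and 1/4, and 7 with the coding ends, against 4. By control efficiency, the lowest decile reversed from -0.0042 to 0.0127 with whole-transcript RNA and stood at -0.0767 and -0.0531 in bins by siPKM TE and by the mean; the highest decile stood at -0.0448 and -0.0784 in these. The lowest decile of CLIP over control RNA stood at 0.11 with 3' UTR RNA. Where fewer rows or reads do not show it, the cause was not tested. Bins by protein length were not run for want of a length table, and no called row had 50 reads in the first 15 codons of each library. No paired analysis was possible because the siRNA groups had single libraries without replicate numbers. The counting error was 0.12 over all rows and 0.06 in the deep ones, beside SDs of 0.20 and 0.15.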
